A study of Arabidopsis thaliana with 16 samples.

Results

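The genes LSU1 (AT3G49580), LSU2 (AT5G24660), LSU3 (AT3G49570), LSU4 (AT5G24655), SDI1 (AT5G48850), SDI2 (AT1G04770) and BGLU28 (AT2G44460) are markers of sulfur limitation in Arabidopsis thaliana, and 7 of the 27416 genes of the deposited count table are described here. They were chosen by locus code, as known markers, once LSU1 had been seen to be lower after 3 d of ethanol and to respond differently at the 2 durations. The ethanol comparison at 3 d and the difference between the responses are therefore given as descriptions. No p-value of a member is given there, and nothing is read from calls of members. The control comparison by duration shares its 3 d control libraries with both comparisons, and LSU1 is described there without a p-value too. The ethanol comparison at 1 d and that of the ethanol groups share libraries with the difference, so nothing is read from a test of LSU1 there. The libraries come from whole seedlings grown on agar. EtOH seedlings stood in ethanol vapour, from an age of 13 d for 1 d (EtOH_1d) or from 11 d for 3 d (EtOH_3d), and so reached 14 d in both groups. Their controls, moc_1d and moc_3d, started at the same ages of 13 d and 11 d and also reached 14 d. These controls carry a treatment label that the sources used here do not spell out, and neither genotype nor plate is given. Each group has 4 labelled samples. The columns of moc_1d replicate 1 and moc_3d replicate 3 are identical in all 27416 genes, so both were left out, which leaves 3 control and 4 ethanol libraries per duration. Total counts of the 14 libraries used were 3695511 to 15943927, and 3 counts were worth 0.186 to 0.805 CPM, the unit of level used here, which is counts scaled to a common effective library size. Whether replicates were grown apart is not recorded, and the p-values cover the spread among the deposited samples, which may be technical. In whole seedlings a lower share of cells that express a gene and less of its RNA per cell cannot be told apart.

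Plants take up sulfate and reduce it to sulfide, which is joined to O-acetylserine to give cysteine. When sulfate runs short, O-acetylserine accumulates, and a set of genes rises, many of them under the transcription factor SLIM1. The LSU (RESPONSE TO LOW SULFUR) genes encode small coiled-coil proteins that bind many partners. SDI1 and SDI2 (SULFUR DEFICIENCY INDUCED) encode tetratricopeptide repeat proteins that lower the synthesis of glucosinolates, the sulfur-rich defence compounds of the family. BGLU28 encodes a beta-glucosidase thought to break glucosinolates down and free their sulfur. In seedlings these genes are read as a sign of sulfur status.

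The LSU genes lie as 2 tandem pairs on the TAIR10.1 reference, and their similarity bears on whether reads can be told apart. LSU3 (chromosome 3, 18372404 to 18373147) and LSU1 (chromosome 3, 18374908 to 18375940) stand 1760 bases apart with no gene between them. LSU4 (chromosome 5, 8440601 to 8441364) and LSU2 (chromosome 5, 8443279 to 8444101) stand 1914 bases apart, again with no gene between them. All 4 are on the minus strand, and the transcript with the longest coding sequence is a single exon of 279 to 294 coding bases. Coding sequences were 80.7% identical in LSU1 and LSU3 and 87.0% in LSU2 and LSU4, while pairs taken across the chromosomes had 69.1% to 76.5%. The stretches of 60 coding bases nearest to the stop codon that align without a gap are shown with capitals where a base differs from the tandem partner.
LSU1: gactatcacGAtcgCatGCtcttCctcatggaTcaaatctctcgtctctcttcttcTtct
LSU3: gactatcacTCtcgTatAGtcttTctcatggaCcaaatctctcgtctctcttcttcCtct
LSU2: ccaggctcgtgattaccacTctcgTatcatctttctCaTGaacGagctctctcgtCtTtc
LSU4: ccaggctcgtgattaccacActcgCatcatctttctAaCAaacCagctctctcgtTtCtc
Each pair differed at 8 of these 60 positions. In the last 500 bases of each transcript, near which 3' reads fall, the longest match to another locus was 389 bases at 83.3% identity, between LSU2 and LSU4. No alignment of 100 bases or more to another locus reached 95% identity over its whole length. Stretches within the longer alignments were not examined one by one. The other members are SDI1 (chromosome 5, 19805437 to 19807853, 4 exons), SDI2 (chromosome 1, 1336274 to 1337849, 4 exons) and BGLU28 (chromosome 2, 18346306 to 18350026, 13 exons). SDI2 overlaps AT1G04760 on the opposite strand, and no source used here states whether counting was by strand, so reads of the pair could be mixed. The other 6 members overlap no annotated gene.

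The 250 bases before the annotated gene start are shown for 4 members, 3 whose level rose between the control groups and LSU4, whose level did not pass the test. Sequences read towards the gene, in the RefSeq TAIR10.1 assembly, and capitals mark GAGAC on either strand, the core of the sulfur-responsive element known from the sulfate transporter SULTR1;1.
LSU1, chr3:18375941-18376190, minus strand: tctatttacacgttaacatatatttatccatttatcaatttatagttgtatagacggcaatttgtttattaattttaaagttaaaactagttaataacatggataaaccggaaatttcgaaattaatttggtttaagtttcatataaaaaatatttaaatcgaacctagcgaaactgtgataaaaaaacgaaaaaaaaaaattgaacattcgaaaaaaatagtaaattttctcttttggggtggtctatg
LSU3, chr3:18373148-18373397, minus strand: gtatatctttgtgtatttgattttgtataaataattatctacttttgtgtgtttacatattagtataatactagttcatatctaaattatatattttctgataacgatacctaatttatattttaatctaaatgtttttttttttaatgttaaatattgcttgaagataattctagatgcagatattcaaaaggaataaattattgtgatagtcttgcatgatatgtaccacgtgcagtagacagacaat
SDI1, chr5:19807854-19808103, minus strand: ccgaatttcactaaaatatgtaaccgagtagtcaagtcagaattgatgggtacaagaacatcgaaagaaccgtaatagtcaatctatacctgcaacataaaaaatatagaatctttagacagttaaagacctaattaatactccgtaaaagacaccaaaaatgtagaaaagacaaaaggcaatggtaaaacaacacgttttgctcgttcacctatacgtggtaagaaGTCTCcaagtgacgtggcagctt
LSU4, chr5:8441365-8441614, minus strand: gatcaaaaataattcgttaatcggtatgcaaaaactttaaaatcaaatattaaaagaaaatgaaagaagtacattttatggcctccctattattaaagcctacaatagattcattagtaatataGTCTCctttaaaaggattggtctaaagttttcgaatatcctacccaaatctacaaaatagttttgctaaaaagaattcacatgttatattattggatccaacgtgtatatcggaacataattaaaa
GAGAC was present in the 250 bases of SDI1, LSU4 and BGLU28, 3 of 7 members, against 25.8% of 27443 protein-coding genes. In windows of 1000 bases the same 3 members held it, against 71.7% of all genes.

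The first comparison asked how control seedlings of 3 d differed from those of 1 d, and it held the largest differences of the set. LSU3 rose 2.62-fold, SDI1 2.32-fold, SDI2 1.71-fold and LSU2 1.63-fold in moc_3d, and LSU1 was 2.10-fold higher. LSU4 and BGLU28 did not pass the test. In 5 of 7 members every library of moc_3d lay above every library of moc_1d, against 8.03% of the 18419 genes tested. By edgeR's quasi-likelihood test 5 of 7 members passed in the higher direction, LSU1 among them, and 0 in the lower, against 0.527% and 0.315% of all genes tested. Without LSU1, which is only described here, 4 of 6 members passed, and the same 4 did not overlap. Over the 14 libraries the log2 CPM of LSU1 had a Pearson correlation of 0.75 with LSU3 and 0.676 with LSU2. It was 0.56 with SDI2 and 0.297 with SDI1, so these 4 are not wholly separate from the choice of LSU1. The median log2 fold change was 0.78 over the 7 members and -0.0018 over all genes tested.

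In LSU3 the levels were 6.47, 6.69 and 5.73 CPM in moc_1d and 24.29, 12.85 and 13.69 CPM in moc_3d. All 3 libraries of moc_3d were high, and replicate 1 stood far above the other 2. The log2 fold change was 1.39 ± 0.21 (SE), with adjusted p = 5.55e-05 by edgeR. Its neighbour LSU1 had 11.45, 8.95 and 7.37 CPM in moc_1d and 27.58, 16.86 and 16.27 CPM in moc_3d. Here too the groups did not overlap and moc_3d replicate 1 was highest, with a log2 fold change of 1.07 ± 0.20.

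LSU2 had 21.25, 21.72 and 23.25 CPM in moc_1d and 46.39, 34.54 and 28.03 CPM in moc_3d. The 1 d controls lay close together and the 3 d controls spread widely above them. The log2 fold change was 0.71 ± 0.16 (SE), adjusted p = 0.0218 by edgeR. The call of LSU2 was lost (edgeR) when moc_1d replicate 2 (adjusted p = 0.153), 3 (0.113) or 4 (0.0818) was left out, or moc_3d replicate 1 (0.163) or 2 (0.0549). Its neighbour LSU4 had 2.36, 1.03 and 1.96 CPM against 1.83, 1.52 and 2.97 CPM. These rest on 10 to 27 counts per library, the groups overlapped, and the log2 fold change of 0.25 had a 95% interval of -0.68 to 1.19. At this depth a change of LSU4 as large as that of LSU2 was not detectable.

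SDI1, the repressor of glucosinolate synthesis, had 3.41, 3.40 and 4.91 CPM in moc_1d and 6.94, 8.43 and 10.85 CPM in moc_3d. Its 3 d controls were all higher, and here replicate 4 was the highest and replicate 1 the lowest of them. The log2 fold change was 1.21 ± 0.26 (SE), adjusted p = 0.00842 by edgeR, and its call was lost when moc_1d replicate 2 (0.0962) or 3 (0.0729) or moc_3d replicate 4 (0.106) was left out. SDI2, its homologue, had 22.91, 25.83 and 22.43 CPM in moc_1d and 43.84, 45.45 and 33.45 CPM in moc_3d. The 3 d controls were again all higher, with a log2 fold change of 0.78 ± 0.12 (SE), adjusted p = 8.92e-05 by edgeR. SDI2 and LSU3 passed whichever of the 14 libraries was left out.

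BGLU28 had 2.19, 2.37 and 2.29 CPM in moc_1d and 2.74, 1.38 and 2.07 CPM in moc_3d. The 3 d controls lay on both sides of the tight 1 d controls. Its log2 fold change was -0.17, with a 95% interval of -1.03 to 0.69, the upper end of which lies below the log2 fold changes of the 5 higher members. The difference between BGLU28 and these members was not tested.

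These calls depend on how the library deposited under 2 control labels is treated. With that library kept once as moc_3d the same 5 members passed. With it kept once as moc_1d, or counted in both groups, 0 of 7 passed, and the log2 fold changes of the 5 ranged from 0.52 to 1.11. Over all genes tested these 2 fits called 19 of 18333 and 5 of 18137. The count was 176 of 18333 with the library kept as moc_3d and 155 of 18419 with it left out. The sign of each of the 7 values was the same in all these fits. Which label is right was not decided here.

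**Figure D1:**
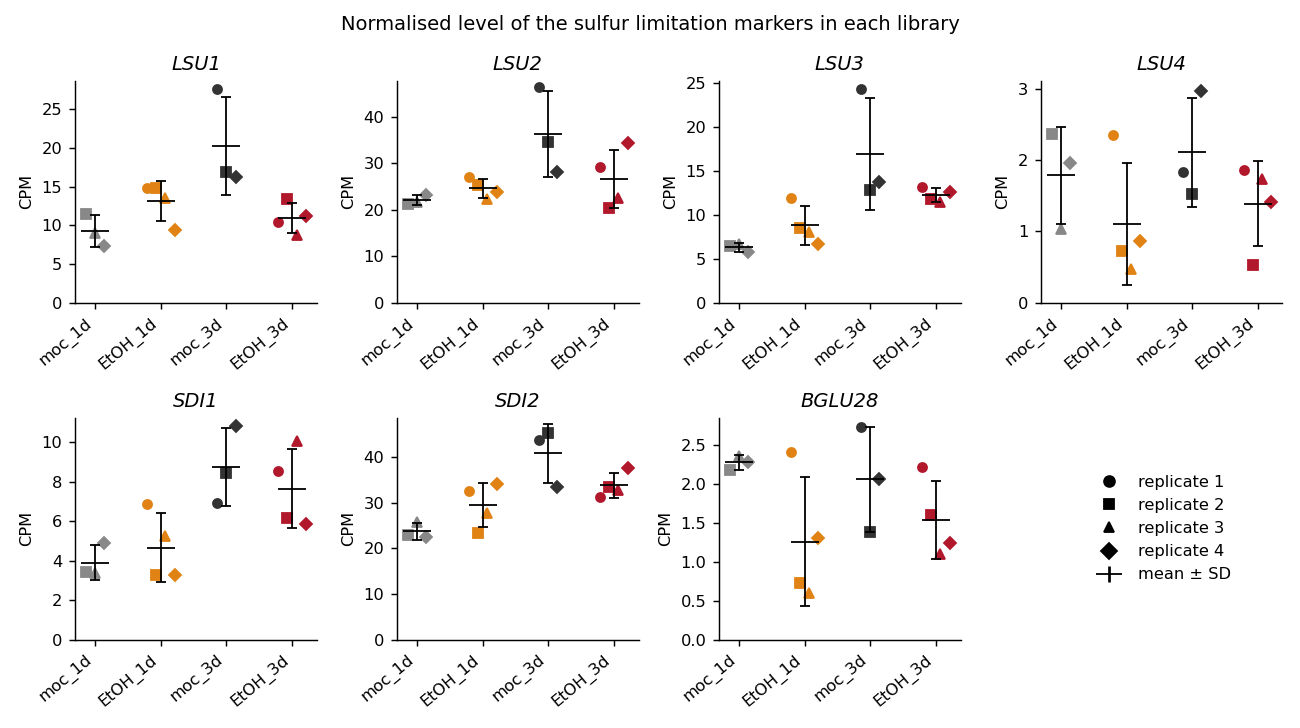
Normalised level in CPM (linear axis from 0) of each member in the 14 libraries, by group, with the mean and SD in black and replicate numbers as symbols. The moc_3d libraries of LSU1, LSU2, LSU3, SDI1 and SDI2 all lie above those of moc_1d, and the groups of LSU4 and BGLU28 overlap.

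**Figure D2:**
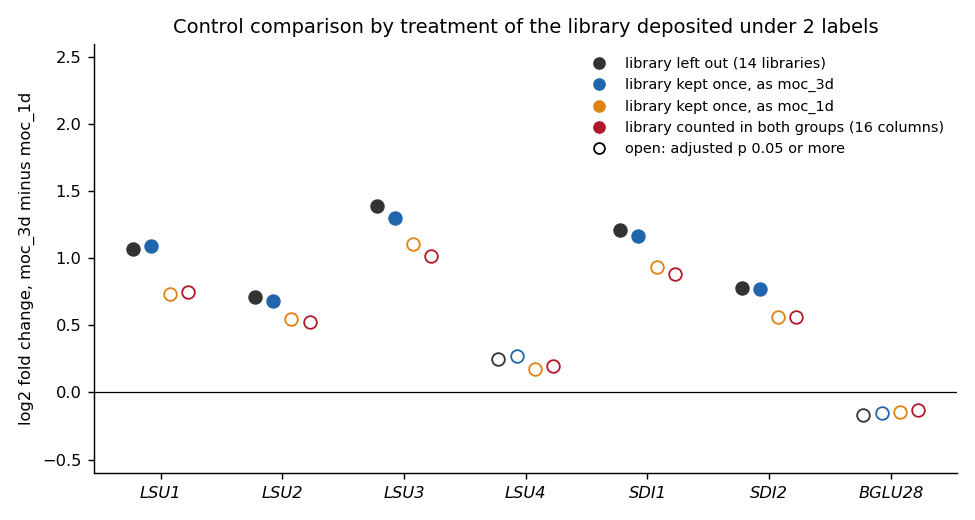
Log2 fold change of each member between the control groups under 4 treatments of the library deposited under 2 labels, with filled points where edgeR's adjusted p is under 0.05. The 5 filled members with the library left out or kept as moc_3d are open, and lower, when it is kept as moc_1d or counted in both groups. LSU1 is among the 5 and is only described.

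The second comparison was that of ethanol seedlings of 3 d with those of 1 d, the same durations without the control libraries. None of the 7 members passed by edgeR, against 1.00% of all genes tested, 0.635% higher and 0.369% lower. At an unadjusted p under 0.05 there were 2 members, LSU3 and SDI1, against 1880 of the 18419 genes tested. DESeq2 without its filter on low means called 0 members too. SDI1 had 6.88, 3.25, 5.23 and 3.26 CPM in EtOH_1d and 8.54, 6.17, 10.07 and 5.84 CPM in EtOH_3d. The ranges overlapped through EtOH_1d replicate 1, and the log2 fold change was 0.66 ± 0.23 (SE), adjusted p = 0.194 by edgeR. Without that library SDI1 passed (0.97, adjusted p = 0.0471). LSU3 had 11.96, 8.49, 8.08 and 6.73 CPM in EtOH_1d and 13.18, 11.80, 11.48 and 12.56 CPM in EtOH_3d, overlapping through the same library. Its log2 fold change was 0.44 ± 0.18 (SE), adjusted p = 0.351 by edgeR.

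LSU1 and BGLU28 were the members whose value between the ethanol groups had the opposite sign to that between the controls. LSU1 had 14.87, 14.81, 13.54 and 9.44 CPM in EtOH_1d and 10.40, 13.41, 8.81 and 11.15 CPM in EtOH_3d. These overlapped, with a log2 fold change of -0.29 ± 0.18 (SE). Both ethanol groups enter the difference of responses for which LSU1 was chosen, so its value and sign are a description. LSU2 (0.12), SDI2 (0.18), LSU4 (0.20) and BGLU28 (0.11) had log2 fold changes nearer to 0, with adjusted p of 0.617 to 0.961 by edgeR.

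The third comparison asked what 1 d of ethanol did. Log2 fold changes were positive in LSU1, LSU2, LSU3, SDI1 and SDI2 and negative in LSU4 and BGLU28. That is 5 of 7 positive, against 51.0% of all genes tested. None of the members passed by edgeR, as none of the 18419 genes tested did (0%). LSU3 was the one member whose EtOH_1d libraries, listed above, all lay above those of moc_1d, a pattern seen in 3.26% of all genes tested. The margin was narrow, with EtOH_1d replicate 4 at 6.73 CPM and moc_1d replicate 3 at 6.69 CPM. The log2 fold change of LSU3 was 0.51 ± 0.20 (SE), that of LSU1 0.48 ± 0.19 and that of SDI2 0.33 ± 0.12. With the library of 2 labels kept as moc_1d these 3 values were 0.22, 0.14 and 0.12, and the median of the 7 members fell from 0.33 to 0.083 (0.084 with it counted in both groups). The smallest adjusted p by edgeR was that of SDI2, 0.889. LSU1, LSU3 and SDI2 had an unadjusted p under 0.05, as did 795 of the 18419 genes tested, and DESeq2 called 0 members. The 1 d libraries enter the difference of responses for which LSU1 was chosen, so nothing is read from its p here.

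LSU2 and SDI1 had log2 fold changes of 0.17 ± 0.15 and 0.36 ± 0.26 (SE) at 1 d. LSU4 had -0.50 (95% interval -1.39 to 0.39) and BGLU28 -0.69 (-1.48 to 0.11). In BGLU28 the ethanol libraries had 2.42, 0.72, 0.59 and 1.30 CPM, so that replicate 1 lay above the 1 d controls and the other 3 below them. In LSU4 EtOH_1d replicate 1 had 2.35 CPM, within the control range, and the others had 0.72, 0.48 and 0.87 CPM, below it. EtOH_1d replicate 1, which has the highest total count, was the highest of its group in 6 of 7 members. Without it the log2 fold changes at 1 d were 0.274 in LSU3, 0.39 in LSU1, 0.274 in SDI2, 0.106 in LSU2, 0.053 in SDI1, -1.35 in LSU4 and -1.33 in BGLU28, with a median of 0.106, and none passed by edgeR. The 7 signs were those of the fit with it. The part of depth in these values was not tested.

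The fourth comparison was that of 3 d of ethanol with its controls, from which LSU1 was chosen, and its values are a description. All 7 log2 fold changes were negative, as were 50.2% of those of all genes tested, with a median of -0.42 against -0.0011 over all genes tested. The choice of LSU1 fixed that at least 1 of 7 members is among the genes called lower here (0.114% of all genes tested), and nothing is read from it. Every EtOH_3d library of LSU1 lay below every moc_3d library, which 3.58% of all genes tested showed, and the other 6 members overlapped. The 4 ethanol libraries of LSU1 had 8.81 to 13.41 CPM and its 3 controls 16.27 to 27.58 CPM, with a log2 fold change of -0.89 ± 0.19 (SE). The call was lost when EtOH_3d replicate 1 or 3 or moc_3d replicate 1 was left out, and with the library of 2 labels kept as moc_1d or counted in both groups.

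LSU2 had 29.15, 20.38, 22.65 and 34.33 CPM in EtOH_3d, of which replicates 2 and 3 lay below the controls. Its log2 fold change was -0.42 ± 0.15 (SE). LSU3 had -0.44 ± 0.19, and its 4 ethanol libraries lay close together with replicate 1 inside the control range. SDI2 had 31.38, 33.53, 32.88 and 37.69 CPM in EtOH_3d and a log2 fold change of -0.27 ± 0.12. SDI1 had -0.18 ± 0.24 and moved to 0.004 without moc_3d replicate 4. LSU4 (1.86, 0.54, 1.73 and 1.42 CPM) had -0.55 ± 0.48 and BGLU28 (2.23, 1.61, 1.101 and 1.24 CPM) had -0.41 ± 0.46, both on 2 to 12 counts per ethanol library.

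Library moc_3d replicate 1 was the highest of all 14 libraries in 4 of 7 members, LSU1, LSU2, LSU3 and BGLU28. Without it the log2 fold change of LSU1 at 3 d was -0.62, that of LSU2 -0.22 and that of LSU3 -0.11. The median of the members was then -0.22, with 7 of 7 negative. With the library of 2 labels kept as moc_3d the median was -0.39, and counted in both groups it was also -0.39.

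**Figure D3:**
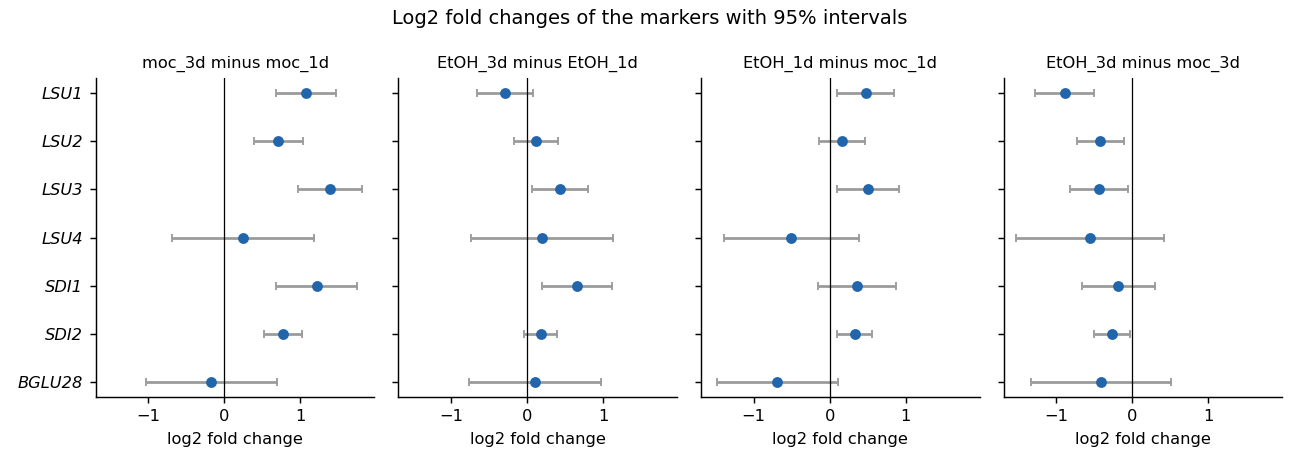
Log2 fold change of each member (point) with its 95% interval (bar) in the control comparison, the ethanol comparison by duration, and the ethanol comparisons at 1 d and 3 d. Values of LSU1, LSU2, LSU3, SDI1 and SDI2 lie above 0 in the first panel, all 7 values lie below 0 in the last, and the intervals of LSU4 and BGLU28 span 0 in every panel.

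The response to ethanol at 3 d minus that at 1 d is described in the same way. The difference was -1.36 ± 0.27 (SE, log2) in LSU1, the value for which it was chosen, so that nothing is read from its place among the 0.0163% of genes called lower. LSU3 had -0.95 ± 0.28, SDI2 -0.60 ± 0.165, LSU2 -0.59 ± 0.21 and SDI1 -0.55 ± 0.35. LSU4 (-0.05 ± 0.66) and BGLU28 (0.28 ± 0.61) lay near 0 with wide errors. The median was -0.59, against -0.0036 over all genes tested. The call of LSU1 was lost when EtOH_1d replicate 1, 2 or 3, EtOH_3d replicate 1, 3 or 4, moc_1d replicate 3 or 4, or moc_3d replicate 1 was left out. With the library of 2 labels kept as moc_1d or counted in both groups its difference was -1.02 or -1.04 and not called.

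Across the 4 groups, moc_3d had the highest mean in 6 of 7 members, all but BGLU28. In LSU2, LSU3, SDI1 and SDI2 the order of the means was moc_1d, EtOH_1d, EtOH_3d and moc_3d, from low to high. In LSU3 these means were 6.30 ± 0.50 (SD, n = 3), 8.81 ± 2.23 (n = 4), 12.26 ± 0.77 (n = 4) and 16.94 ± 6.38 CPM (n = 3). The libraries of moc_1d and EtOH_1d did not overlap there, by the narrow margin of 6.69 against 6.73 CPM, and those of the other neighbouring groups did. In SDI2 the means were 23.72 ± 1.84 (SD, n = 3), 29.51 ± 4.86 (n = 4), 33.87 ± 2.70 (n = 4) and 40.91 ± 6.51 CPM (n = 3), and all neighbouring groups overlapped. In LSU1 EtOH_3d came before EtOH_1d, at 10.94 ± 1.91 (SD, n = 4) and 13.17 ± 2.56 CPM (n = 4), between 9.26 ± 2.06 in moc_1d (n = 3) and 20.24 ± 6.37 in moc_3d (n = 3). Only the libraries of moc_3d stood clear of the group next to them in LSU1.

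Other genes of sulfur limitation, a list of 12 that holds no member, moved between the controls as well. Of the 12, 5 rose in moc_3d and none fell by edgeR, against 0.527% of all genes tested called higher, and their median log2 fold change was 0.43. GGCT2;1, an enzyme that degrades glutathione, rose from 4.96 ± 1.08 to 10.97 ± 0.89 CPM (SD, n = 3 each), which is 1.11 ± 0.21 (SE) in log2 (adjusted p = 0.00141 by edgeR). The APS reductases, which carry out the first reduction of activated sulfate, rose by 0.55 ± 0.10 in APR1, 0.39 ± 0.08 in APR2 and 0.43 ± 0.08 in APR3 (log2, ± SE). SULTR1;2, the main sulfate importer of the root, rose from 45.85 ± 2.49 to 59.44 ± 1.77 CPM (0.37 ± 0.10, adjusted p = 0.0499 by edgeR). The SULTR1;2 call was lost when any of the 6 control libraries, EtOH_1d replicate 3 or 4 or EtOH_3d replicate 3 was left out, and with DESeq2 or the replicate block, where the other 4 passed. That of APR1 was lost without moc_1d replicate 2, and that of APR2 without moc_1d replicate 3 or moc_3d replicate 1. With the library of 2 labels kept as moc_1d 0 of the 12 passed (19 of 18333 genes tested). Counted in both groups it also gave 0 (5 of 18137). With it kept as moc_3d 5 passed (176 of 18333), SHM7 in place of SULTR1;2.

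SHM7, a serine hydroxymethyltransferase that rises with O-acetylserine, had 0.63 ± 0.17 between the controls and missed the threshold (adjusted p = 0.0603 by edgeR). It was the 1 gene of the list that passed between the ethanol groups (0.57 ± 0.15, adjusted p = 0.041 by edgeR, against 0.635% of all genes tested called higher), from 11.90 ± 2.11 to 17.96 ± 4.33 CPM (SD, n = 4 each). The SHM7 call was lost when EtOH_1d replicate 1, 2 or 3 or EtOH_3d replicate 1, 2 or 4 was left out. It was also lost with the library of 2 labels kept as moc_1d or counted in both groups, in a fit of the ethanol groups alone, and with DESeq2 without independent filtering. SULTR4;2 (0.46 ± 0.21) and SULTR4;1 (0.28 ± 0.15), exporters of sulfate from the vacuole, SULTR2;2 (0.47 ± 0.22) and SULTR2;1 (0.04 ± 0.10), transporters of the vascular tissue, and BGLU30 (0.44 ± 0.27), a relative of BGLU28, did not pass between the controls. SULTR1;1, a root importer known for its strong rise in sulfur shortage, stood at 1.09 ± 0.34 CPM in moc_1d and 0.99 ± 0.48 in moc_3d (SD, n = 3 each), with a log2 fold change of -0.04 ± 0.58.

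After 3 d of ethanol 9 of the 12 had a negative log2 fold change, with a median of -0.17, and none passed by edgeR, against 0.554% of all genes tested. At an unadjusted p under 0.05 there were 4, against 1624 of the 18419 genes tested. DESeq2 called 0, and edgeR without a filter on low counts called 1, SULTR1;2. SULTR1;2 had -0.35 ± 0.10 (adjusted p = 0.0662 by edgeR) and GGCT2;1 -0.43 ± 0.20. At 1 d none of the 12 passed by edgeR, with a median of 0.15, and DESeq2 called 0. An unadjusted p under 0.05 by edgeR was found for 2, against 795 of the 18419 genes tested. The 1 d and 3 d comparisons have no library in common, while the control comparison shares its libraries with both.

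**Figure D4:**
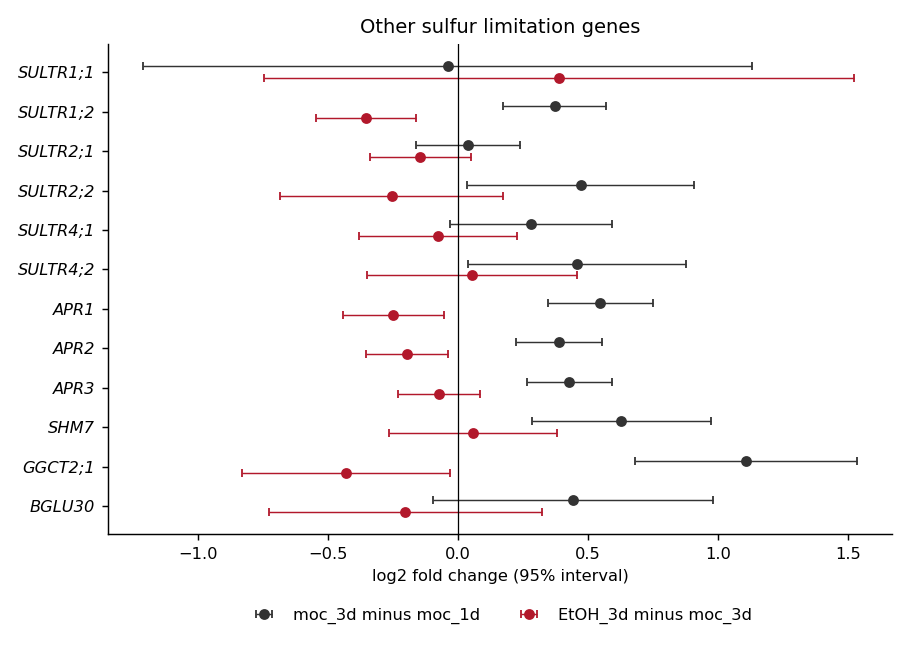
Log2 fold change (point) and 95% interval (bar) of the 12 other sulfur limitation genes between the controls (dark) and after 3 d of ethanol against its controls (red). GGCT2;1, APR1, APR2, APR3 and SULTR1;2 passed the test between the controls, and none passed after 3 d of ethanol.

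SLIM1, the regulator, had log2 fold changes of 0.003 ± 0.20 (SE) between the controls and 0.16 ± 0.20 after 3 d of ethanol, and EIN3 and EIL1, its relatives of the ethylene pathway, passed in no comparison. Of 8 genes for serine acetyltransferases and O-acetylserine(thiol)lyases, which make cysteine, 1 passed between the controls, in the lower direction (0.315% of all genes tested). It was SERAT2;1, the plastid acetyltransferase, which fell by 0.39 ± 0.10 (log2, SE) from 53.2 to 40.4 CPM (adjusted p = 0.0433 by edgeR). The SERAT2;1 call was lost with the library of 2 labels kept as moc_1d (adjusted p = 0.171 by edgeR) or counted in both groups (0.356), with DESeq2 (0.0525) and with replicate number as a block (0.067). It was also lost when any moc_1d library or moc_3d replicate 1 or 2 was left out. Of 9 genes of aliphatic glucosinolate regulation, synthesis and breakdown, none passed by edgeR in any of the 5 comparisons. An unadjusted p under 0.05 by edgeR was found for 3 of the 9 after 3 d of ethanol (1624 of 18419 genes tested) and 3 between the ethanol groups (1880). It was found for 1 at 1 d (795), 1 between the controls (1720) and 0 for the difference of responses (1025). DESeq2 called CYP79F1 after 3 d of ethanol. Log2 fold changes were negative in 7 of 9 after 3 d of ethanol and in 9 of 9 between the ethanol groups. After 3 d of ethanol CYP79F1, which starts the synthesis of aliphatic glucosinolates, had -0.27 ± 0.07 (SE; adjusted p = 0.0503 by edgeR) and MYB28, a regulator of that synthesis, -0.35 ± 0.10 (0.0863). These 2 genes are named because of their values. At 1 d MYB28 was lower too, at -0.23 ± 0.09 (SE, unadjusted p = 0.0131 by edgeR), and CYP79F1 had -0.10 ± 0.07. In both genes every EtOH_3d library lay below every moc_3d library, as in 3.58% of all genes tested. CYP79F1 lay on the other side of the threshold with DESeq2 (adjusted p = 0.0167, 0.0386 without independent filtering), RLE scaling (0.0474), no filter on low counts (0.0331) and the replicate block (0.0354), and over all settings its adjusted p ran from 0.0167 to 0.179.

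Among 14357 genes with a mean of at least 5 CPM, the one most like LSU1 over the 14 libraries was AT3G56200, a member of the amino acid transporter family, with a Pearson correlation of log2 CPM of 0.921. TBL32 (0.846), AT3G28950 (0.841), GTR1 (0.841) and DJ1F (0.829) followed. Mean levels of AT3G56200 were highest in moc_3d (13.29 CPM), with 9.94 in EtOH_1d, 9.53 in EtOH_3d and 8.52 in moc_1d. The genes most like SDI1 were AT4G27720 (0.863), MYB51 (0.855), TBP2 (0.839), AT5G22890 (0.831) and NAC062 (0.824). The points share libraries and depth, and these are the highest of many correlations.

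Marker transcripts of root and of leaf were present in every library. The summed level of 10 root markers was 1260 to 1439 CPM in moc_1d, 1295 to 1317 in moc_3d, 1195 to 1511 in EtOH_1d and 1201 to 1291 in EtOH_3d. The 4 leaf markers summed to 31380 to 32582 CPM in moc_1d, 31856 to 34707 in moc_3d, 29925 to 33399 in EtOH_1d and 31625 to 35069 in EtOH_3d. In moc_1d the root marker BGLU23 had a mean of 1241 CPM, of a mean sum of 1361. The leaf marker RBCS1A had 23041 CPM there, of a mean sum of 32126, so each sum mostly follows 1 gene. No marker of either list was at 0 in any library, and none passed by edgeR in any comparison (WOX5 was too low to be tested).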

How the data were processed

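Whole-seedling total RNA was made into Lasy-Seq libraries, a 3' RNA sequencing method with early barcoding, per the labels' protocols. Tools named without versions in the submitters' processing notes are HISAT2, featureCounts, bcl2fastq, Trimmomatic and DESeq2, with the build TAIR10. The authors deposited whole-number read counts for 27416 genes in 16 columns, with no normalization. A second deposited table was not used here.

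Counts of 14 libraries (identical columns left out of both groups) entered edgeR 4.0.16 (R 4.3.3): filterByExpr by group (18419 genes), TMM, and a robust quasi-likelihood fit of all 4 groups. Tests were two-sided, with Benjamini-Hochberg adjustment over all genes tested and a threshold of 0.05. Standard errors (SE) come from the test statistic. The fit was tested on simulated data. Alternatives were RLE scaling, DESeq2 1.42.0, no filter, 2-group fits, 3 uses of the identical library, each library left out, and replicate number as a block. DESeq2 without independent filtering was added after seeing the data.

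All 7 members are named, with the other 12 sulfur limitation genes and 3 regulators, and the 5 genes with the highest correlation with LSU1 and with SDI1. The plan was to name called genes of the cysteine and glucosinolate lists. CYP79F1 and MYB28, not called in the main fit, were named because of their values. Of the markers, WOX5, BGLU23 and RBCS1A are named. Members, lists and tests were chosen with earlier results of these data known. Names, coordinates and sequences come from RefSeq TAIR10.1, matched by locus code for all 7 members, and the deposited table carries no coordinates. Coding sequences were aligned with Biopython 1.88 and transcript ends searched with BLAST 2.17.0.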

Additional observations from a re-analysis of the deposited data

Results flagged for a closer look

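The ethanol response of LSU1 differed between the durations, with 3 d minus 1 d at -1.36 on the log2 scale, the difference for which the gene was singled out and therefore no independent evidence. Over 7 members and the 2 ethanol groups, the groups of 4 libraries that can be searched for a library far from the rest, no library was picked out. Groups of 3 control libraries were not searched in this way, so moc_3d replicate 1 was not examined by it.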

How the results depend on the processing

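In the control comparison 5 members passed, among them LSU1, which is only described there. The number was 0 with the library of 2 labels kept as moc_1d and 0 in the 16 columns as deposited, and 3 to 5 when 1 library was left out. In the 3 d ethanol comparison, where 1 passed, it was 0 and 0 in these fits, 2 without a filter on low counts (LSU1 and LSU2) and 0 to 2 when 1 library was left out. For the difference of responses, also 1, it was 0 and 0, and 0 to 1 when 1 library was left out. Over all genes tested the fits with the library kept as moc_1d and with 16 columns called 19 and 5 between the controls (main fit 155). At 3 d they called 74 and 66 (main fit 102), and for the difference 4 and 0 (main fit 8). LSU1 was chosen from the 3 d comparison and the difference, so all counts of members called there are descriptions and nothing is read from them. Between the ethanol groups the number of members was 0 to 1 when 1 library was left out, and at 1 d 0 in every fit. The causes were not tested. The default DESeq2 filter gave 5 members, LSU1 among them, no adjusted p at 3 d and for the difference, and 3 between the ethanol groups, so no count is given for it there. Signs turned only in values that had not passed. The difference of responses of LSU4 was 0.007 in the 16 columns, 0.029 with the library kept as moc_1d, 0.012 by DESeq2 without independent filtering, 0.514 with the replicate block and -0.365 to 0.801 with 1 library left out. Its control value was -0.136 with the replicate block and -0.106 to 0.57 with 1 left out, and its value between the ethanol groups -0.037 to 1.052. With 1 library left out BGLU28 ran from -0.395 to 0.056 between the controls and -0.139 to 0.753 between the ethanol groups, LSU2 from -0.028 to 0.211 between the ethanol groups, and SDI1 from -0.359 to 0.004 after 3 d of ethanol. Same-numbered libraries did not deviate together (r from -0.079 to 0.059), and 4 of 12 libraries correlated best with their own number, so the numbers were not taken as pairs. With the replicate block 5 members passed between the controls, 1 at 3 d, 1 for the difference and 0 in the other 2 comparisons. Over all genes the replicate block called 12 in place of 0 at 1 d and 250 in place of 185 between the ethanol groups. Depth limits LSU4 and BGLU28, with 2 to 39 counts per library.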

Other observations

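The library deposited under the labels of moc_1d replicate 1 and moc_3d replicate 3 was left out of the main fit. It entered only the alternative fits above that kept it under 1 label or counted it in both groups. Its total was 6209714 counts, and scaled to that total alone its CPM were 20.93 of LSU1, 33.17 of LSU2, 12.72 of LSU3, 2.26 of LSU4, 7.57 of SDI1, 40.26 of SDI2 and 2.09 of BGLU28. These values were not used to give it a group.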
